A study of Mus musculus with 2 samples.

Results

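Germ cells of the embryonic gonad were followed through 38 genes of the pluripotency network, of germ cell identity and of the piRNA pathway. The 38 genes were taken from a written list, and each was read from probe sets annotated with that gene symbol alone. Of the 18193 genes represented on the array, 34 of the 38 listed genes had such a probe set, 50 probe sets in all, while Nanos2, Nanos3, Tdrd6 and Fkbp6 had none. The listed genes comprise 22 germ cell and pluripotency genes and 16 piRNA pathway genes.

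Total RNA came from gonad-mesonephros complexes, which are the embryonic gonad together with the adjoining mesonephric kidney, of XX mouse embryos at E12.5, a stage of mid-gestation. One array held RNA of embryos homozygous for Gata4ki, of strain C57Bl/6, and the other RNA of wild-type embryos, whose strain the labels do not state. The transcription factor GATA4 acts in the somatic cells of the gonad, and Gata4ki is a knock-in allele that weakens its contact with the FOG cofactors FOG1 and FOG2. Both arrays pooled 6 pairs of complexes. The series' design text counts 6 control and 6 mutant samples, but 1 array per group was given here, so no test, standard deviation or p-value exists for any value below, and each difference describes these 2 arrays.

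Primordial germ cells settle in the gonad and keep a transcription factor network shared with pluripotent stem cells until they become committed to egg or sperm. The network includes OCT4 (Pou5f1), NANOG and SOX2, and it runs beside RNA-binding proteins such as DAZL and DDX4 that mark gonadal germ cells. The piRNA pathway silences transposons in germ cells. PIWI proteins carry small RNAs, Tudor domain proteins bind modified PIWI proteins and gather them in germ granules, and helicases and nucleases prepare the RNAs. In mice the pathway is most active in the fetal and adult testis, and XX germ cells enter meiosis instead, shortly after the stage studied here.

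Values are MAS5 signals, a linear brightness per probe set. Each array's global scaling makes them comparable between arrays for the same probe set, but not between probe sets. Sums of signal over a marker list therefore follow its brightest probe sets and do not measure the amount of a cell type. The median signal over both arrays, 24.0, served as the floor, and lower signals were set to it before taking log2. Log2 ratios are Gata4ki/ki minus wild type, a gene was read from its brightest probe set, and a gene was measured if that probe set was above the floor on at least 1 array. By this rule 29 of the 38 genes were measured, 26 of them above the floor on both arrays. The 3 measured on 1 array (Gtsf1, Tdrd5 and Tdrd9) have only a bound. Piwil1, Piwil4, Mov10l1, Tdrd1 and Tex101 stayed at or under the floor on both arrays.

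None of the 26 listed genes above the floor on both arrays was 2-fold apart, and none of the 3 bounds reached 2-fold at this floor. A bound leaves a larger difference possible, and the 9 genes without a ratio give no answer. The count of genes past 2-fold on the high side in Gata4ki/ki was 0 of 29, against a background of 0.83% of the 12284 measured genes. The count at least 2-fold lower was also 0 of 29, against 0.537% of all measured genes. At background shares this low, counts of 0 of 29 do not set the list apart. At 1.5-fold, Tfap2c was higher in the mutant (1 of 29, against 3.51% of all measured genes), and Tdrkh and Dnd1 were lower (2 of 29, against 3.1%).

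Signals of the listed genes lay on both sides of equality. The log2 ratio was below 0 for 15 of 29 genes, against 48.6% of all measured genes. A further count put 15 of 29 genes within 0.2 of 0. The share of all genes within 0.2 was not counted, so that number does not set the list apart. The median log2 ratio was -0.05 over the 29 genes and 0.01 over all measured genes. It was 0.02 over the 19 measured germ cell and pluripotency genes and -0.05 over the 10 measured piRNA pathway genes. Since gonad and mesonephros were read together in bulk, fewer germ cells and less RNA per germ cell cannot be told apart in any of these ratios.

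**Figure D1:**
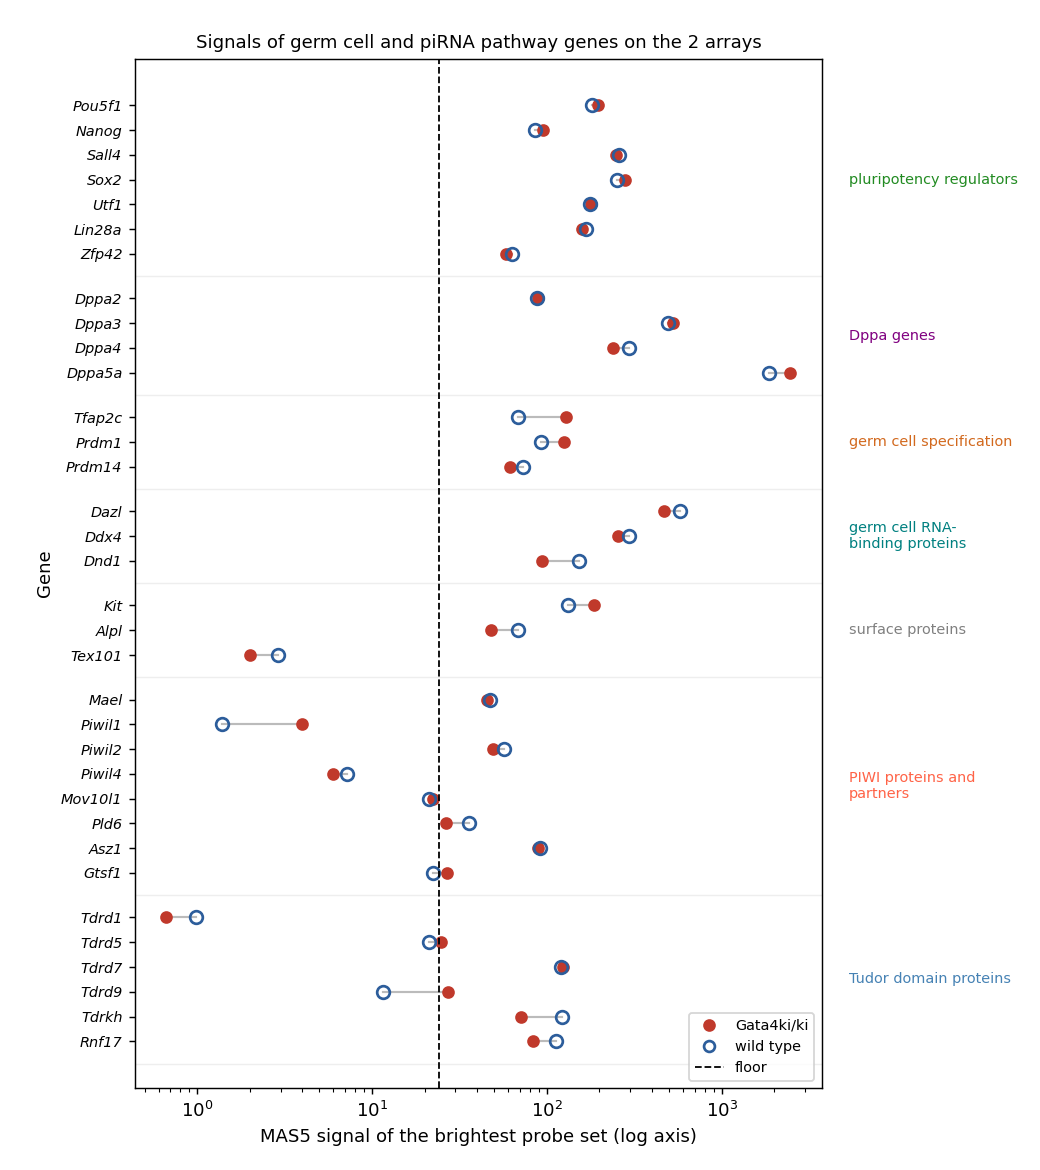
MAS5 signal of the brightest probe set (horizontal log axis) for the 34 genes with a probe set, on the Gata4ki/ki array (filled points) and the wild-type array (open circles). Each row compares the arrays for 1 gene, and the dashed line is the floor of 24.0, to the left of which both points of Piwil1, Piwil4, Mov10l1, Tdrd1 and Tex101 lie.

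The pluripotency regulators were the group whose signals lay closest together. Pou5f1, which encodes the transcription factor OCT4, had signals of 197 in Gata4ki/ki and 181 in wild type, a log2 ratio of 0.12. Nanog, a homeodomain factor of the same network, had 94.8 in Gata4ki/ki and 85.3 in wild type. Sox2, the HMG box partner of OCT4, had 278 in Gata4ki/ki and 252 in wild type. All of these core factors were slightly brighter on the mutant array, with log2 ratios between 0.12 and 0.15.

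The remaining pluripotency genes were as close. Sall4, a zinc finger factor required for germ cell maintenance, had 250.1 in Gata4ki/ki and 259.7 in wild type. Utf1, a chromatin-associated protein of stem cells, had 179.6 in Gata4ki/ki and 177 in wild type. Lin28a, whose product blocks maturation of let-7 microRNAs, had 159 in Gata4ki/ki and 168 in wild type, and Zfp42 (REX1), a stem cell zinc finger gene, had 58.2 in Gata4ki/ki and 63.1 in wild type. The ratios of all 7 pluripotency regulators ran from -0.12 to 0.15. On their dimmer probe sets, Sall4 had a ratio of -0.33 (30.6 in Gata4ki/ki and 38.4 in wild type) and Lin28a at most -0.39 (9.33 in Gata4ki/ki, under the floor, and 31.4 in wild type), and the other probe sets of Utf1 were under the floor on both arrays.

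Among the Dppa genes, Dppa5a was higher in the mutant and Dppa4 lower. Dppa5a, which encodes an RNA-binding KH domain protein of stem and germ cells, had 2476 in Gata4ki/ki and 1868 in wild type, a 1.33-fold difference and a log2 ratio of 0.41. Dppa4, a SAP domain chromatin protein, had 239 in Gata4ki/ki and 295 in wild type, a ratio of -0.30. Dppa3 (Stella), which shields DNA methylation in the mouse zygote, had 525 in Gata4ki/ki and 495 in wild type. Dppa2, which encodes the binding partner of DPPA4 and neighbours Dppa4 on chromosome 16, had 89.4 in Gata4ki/ki and 87.5 in wild type on its brighter probe set, a ratio of 0.03. The other probe set gave 61.2 in Gata4ki/ki and 76.3 in wild type, a ratio of -0.32. With probe sets free of a suffix alone, the sign of Dppa2 therefore turned to that of Dppa4. Dppa3 and Nanog, neighbours on chromosome 6, had ratios of 0.08 and 0.15.

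The specification regulators included the highest ratio of the list. Tfap2c encodes AP-2 gamma, a transcription factor that acts with BLIMP1 and PRDM14 when germ cells are set aside from the epiblast. Its brightest probe set had 129.6 in Gata4ki/ki and 68.4 in wild type, a 1.89-fold difference and a log2 ratio of 0.92. Its other probe sets gave 48.2 in Gata4ki/ki and 28.5 in wild type, a ratio of 0.76, and 52.7 in Gata4ki/ki and 48.0 in wild type, a ratio of 0.13. All 3 were above 0, but they differed in size, and without the brightest, whose suffix marks a set that is not unique to 1 transcript, the gene's ratio was 0.13. Prdm1, which encodes BLIMP1, had 125 in Gata4ki/ki and 92.7 in wild type, a ratio of 0.43. Prdm14 had 61.9 in Gata4ki/ki and 73.1 in wild type, a ratio of -0.24.

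Tfap2c and Prdm1 are also genes of trophoblast, the outer cells of the placenta, and trophoblast markers were high on the mutant array. Of 8 such markers, 7 had a probe set and 6 were measured. Of these, 4 (Ctsj, Ctsq, Prl2b1 and Prl7d1) were at least 2-fold higher in Gata4ki/ki, against 0.83% of all measured genes. All 4 were under the floor on the wild-type array, so their ratios are bounds. The summed signal of all 7 with a probe set was 606 in Gata4ki/ki and 56.8 in wild type. Hand1 had a bound of 0.04 and Tfpi2 a ratio of -0.10, Ascl2 was under the floor on both arrays, and Gcm1 had no probe set. Part of these markers had been seen high in earlier results of the same arrays, and their part in the Tfap2c and Prdm1 ratios was not tested.

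The 3 measured genes grouped here as germ cell RNA-binding proteins, Dazl, Ddx4 and Dnd1, were all lower in the mutant. Over all measured genes, 48.6% had a ratio below 0. Dppa5a, whose product also binds RNA, was grouped with the Dppa genes and had a ratio of 0.41. Lin28a, another gene of an RNA-binding protein, was grouped with the pluripotency regulators and had a ratio of -0.08. Dazl, a translational regulator that licenses gonadal germ cells for sexual differentiation, had 467 in Gata4ki/ki and 581 in wild type, a ratio of -0.31. Its second probe set gave 187 in Gata4ki/ki and 259 in wild type, a ratio of -0.47, so both were lower. Ddx4 (Vasa), a germ granule RNA helicase, had 256 in Gata4ki/ki and 297 in wild type, a ratio of -0.21. Dnd1, an RNA-binding protein needed for germ cell survival, had 93.3 in Gata4ki/ki and 152 in wild type, a 1.63-fold difference and a ratio of -0.71. This group's median was -0.31, set beside 0.02 for the pluripotency regulators and 0.06 for the Dppa genes on the same pair of arrays. That difference depends on which genes were placed in each group, and no test of it is possible with 1 array each.

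The surface proteins went in opposite directions. Kit, the receptor through which KIT ligand sustains migrating and gonadal germ cells, had 187 in Gata4ki/ki and 131 in wild type on its brighter probe set, a ratio of 0.51. The dimmer probe set gave 29.8 in Gata4ki/ki and 32.0 in wild type, a ratio of -0.10, and the median of both was 0.20. Alpl, whose alkaline phosphatase activity is the classical stain for primordial germ cells, had 48.1 in Gata4ki/ki and 68.4 in wild type, a ratio of -0.51. Tex101, a surface protein of later germ cells, had signals of 1.999 in Gata4ki/ki and 2.90 in wild type, both under the floor.

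Kit and Alpl are also used by other cells of the dissected tissue. Mast cells, which carry Kit, were the only cells listed as a source of it, and other sources were not examined. Of the 5 mast cell markers Fcer1a, Mcpt4 and Tpsb2 were under the floor on both arrays. Cpa3 and Mitf had ratios of -0.63 and 0.11. The summed signal of the mast cell markers was 139 in Gata4ki/ki and 149 in wild type. Most of it was Mitf, with 101 in Gata4ki/ki and 93.9 in wild type. Col1a1, Lrp2 and Slc34a1, markers of stroma and kidney tubule where Alpl is expressed, had ratios of 0.38, 0.12 and 0.58 on their brightest probe sets. Their summed signal was 939 in Gata4ki/ki against 725 in wild type, most of it Col1a1 (837 in Gata4ki/ki and 642 in wild type). The second probe sets of Col1a1 and Lrp2 had ratios of -0.17 and -0.02, so only Slc34a1, with 1 probe set, was free of mixed signs. Markers of the mesonephric duct and tubule, a separate list, were mostly lower, with a median of -0.15. Of these, 4 of 5 were below 0, against 48.6% of all measured genes. The part of any of these cells in the Kit and Alpl ratios was not tested.

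**Figure D2:**
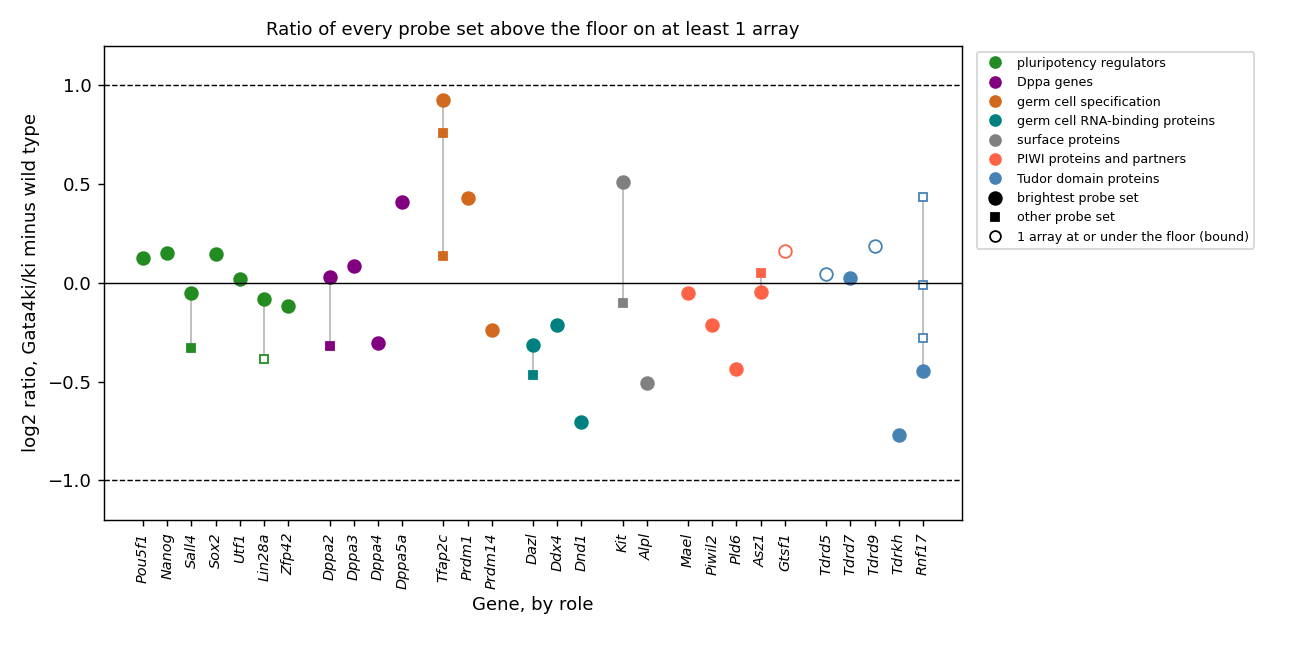
Log2 ratio of Gata4ki/ki minus wild type (vertical axis) for the 40 probe sets above the floor on at least 1 array, by gene and role. Circles are a gene's brightest probe set, squares its other probe sets and open symbols bounds, and dashed lines mark 2-fold, which none of the 40 probe sets reached.

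Probe sets of the PIWI genes were dim or under the floor on these arrays. Signals are not comparable between probe sets, so this does not measure how little PIWI RNA the tissue held. Piwil2, which encodes MILI, the PIWI protein of fetal and postnatal germ cells, had 49.0 in Gata4ki/ki and 56.8 in wild type, a ratio of -0.21. Piwil4 (MIWI2), the nuclear PIWI protein of fetal male germ cells, had 5.96 in Gata4ki/ki and 7.20 in wild type on its brighter probe set, both under the floor. Piwil1 (MIWI), which acts in the postnatal testis, had 3.99 in Gata4ki/ki and 1.39 in wild type, also under the floor. The list of fetal male germ cell markers held Nanos2, Dnmt3l, Piwil4 and Tdrd9. Dnmt3l was under the floor on both arrays, with 12.8 in Gata4ki/ki and 5.68 in wild type, Nanos2 had no probe set, and Tdrd9 was above the floor on the mutant array alone, at least 1.14-fold higher. A signal under the floor leaves the direction of a difference unknown.

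Among the PIWI partners, Asz1 and Mael had nearly equal signals on both arrays and Pld6 was lower in the mutant. Asz1 (GASZ), a germ granule scaffold on mitochondria, had 88.7 in Gata4ki/ki and 91.7 in wild type, a ratio of -0.05, and its second probe set 72.0 in Gata4ki/ki and 69.4 in wild type, a ratio of 0.05. Mael, a germ granule protein of transposon silencing, had 45.8 in Gata4ki/ki and 47.4 in wild type. Pld6 (MitoPLD), the mitochondrial nuclease of piRNA processing, had 26.6 in Gata4ki/ki and 36.0 in wild type, a ratio of -0.44 close above the floor. Gtsf1, a zinc finger cofactor of PIWI proteins, had 26.8 in Gata4ki/ki and 22.4 in wild type, at least 1.12-fold higher. Mov10l1, the helicase of primary piRNA biogenesis, had 22.2 in Gata4ki/ki and 21.2 in wild type, both just under the floor.

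Among the Tudor domain genes, Tdrkh had the lowest ratio of the whole list. Tdrkh encodes a mitochondrial Tudor protein that binds PIWI proteins during trimming of piRNA precursors. Its single probe set had 71.6 in Gata4ki/ki and 122 in wild type, a 1.71-fold difference and a log2 ratio of -0.77. Rnf17, a Tudor protein of its own germ granule, had 83.2 in Gata4ki/ki and 113 in wild type on its brightest probe set, a ratio of -0.44. Its 3 other probe sets each had 1 array under the floor and gave bounds between -0.28 and 0.43, so they did not share a direction.

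The other Tudor genes were close or near the floor. Tdrd7, a granule protein also used in the lens, had 123 in Gata4ki/ki and 121 in wild type, a ratio of 0.03. Tdrd9, a helicase that partners MIWI2, had 27.4 in Gata4ki/ki and 11.5 in wild type. It was at least 1.14-fold higher at the floor of 24.0, and at a floor of 13.7 it reached a log2 ratio of at least 0.996, just under the 2-fold line. Tdrd5, a germ granule protein, had 24.8 in Gata4ki/ki and 21.2 in wild type, at least 1.03-fold higher. Tdrd1, a scaffold for MILI, had 0.666 in Gata4ki/ki and 0.984 in wild type, both under the floor. The dimmer probe sets of Tdrd7, Gtsf1 and Piwil4 were under the floor on both arrays as well.

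The spread of ratios over all genes of like signal gives the scale for these values. The central 95% of ratios ran from -0.84 to 1.06 for genes of mean signal under 50, from -0.81 to 0.79 between 50 and 100, from -0.58 to 0.59 between 100 and 200, from -0.44 to 0.47 between 200 and 400, and from -0.32 to 0.35 above 400. The range covers probe noise and differences between the pools together. By construction about 5% of genes lie outside, 5.03% as counted, and 3 of the 29 listed genes did, Tfap2c and Dppa5a on the high side and Dnd1 on the low side. Dazl, at -0.31, and Tdrkh, at -0.77, lay inside, close to the edge.

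**Figure D3:**
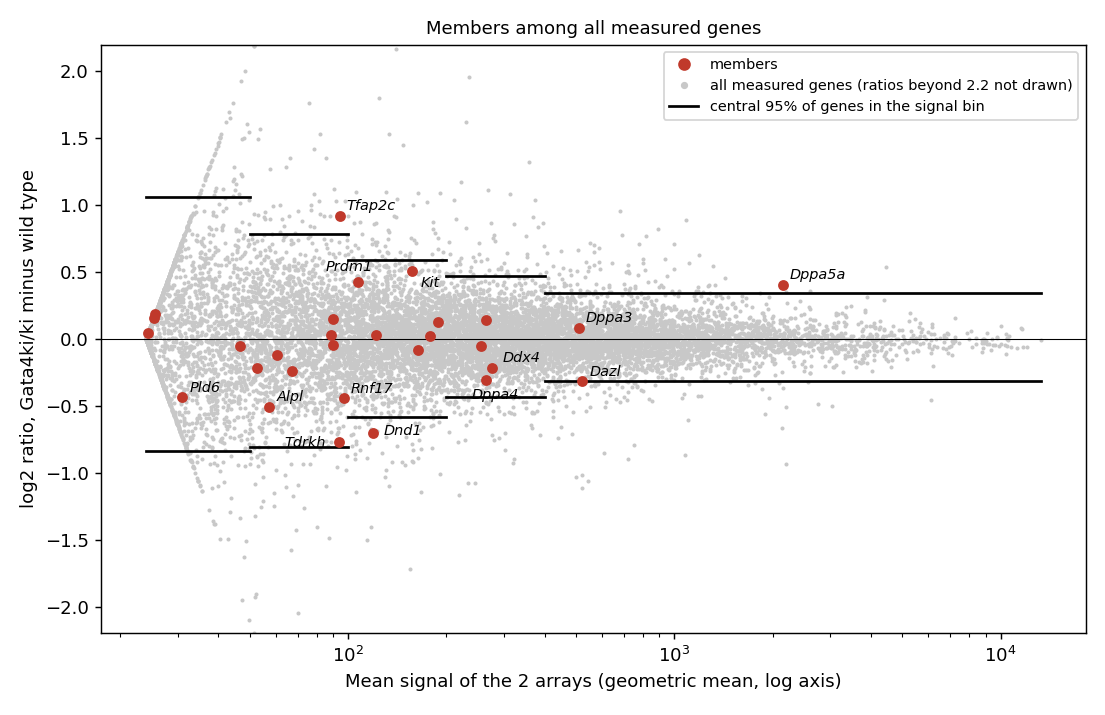
Log2 ratio of Gata4ki/ki minus wild type (vertical axis) against the geometric mean signal of both arrays (horizontal log axis) for the measured genes, with the 29 measured listed genes in red. Black lines bound the central 95% of ratios in each signal bin, and Tfap2c, Dppa5a and Dnd1 lie outside them.

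Repeated probe sets gave a second reading of the same RNA for some genes. Of the 8 genes with 2 or more measured probe sets, 4 had ratios of 1 sign on all of them, namely Dazl, Lin28a and Sall4 below 0 and Tfap2c above 0. The other 4, Dppa2, Kit, Asz1 and Rnf17, had ratios of both signs. Over all genes on the array, 45.0% of the 5463 genes with several measured probe sets had ratios of 1 sign. Probe sets share the RNA pool, so their agreement says nothing about the spread between embryos.

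Promoter sequence was compared as a feature that the list did not use. RefSeq windows from 250 bases before to 50 bases after the gene start (build GRCm38.p6) were found for 27 of the 38 genes. The windows were searched for CACGTG, a palindromic E-box read by basic helix-loop-helix factors, and for GATAA, a core sequence bound by GATA factors, on both strands. The motifs are distinct, though the last base of one can be the first of the other. A gene counted as a match if any of its windows matched. The 27 listed genes had 38 windows and the 27025 genes with a window had 32851, so the listed genes had more windows per gene. CACGTG was present in 8 of the 27 genes, or 29.6%, against 8.09% of the 27025 genes. Among genes with at least 10 CpG in a window, it was present in 8 of 24 listed genes and in 12.3% of 12388 genes. The 7 of 13 piRNA pathway genes with the E-box were Mael, Tdrd1, Tdrd9, Piwil1, Mov10l1, Pld6 and Fkbp6, and Ddx4 was the only one of 14 germ cell and pluripotency genes. A match is a description of letters and not a binding site.

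The windows of Ddx4, Mael and Tdrd9 are printed because they hold the shared E-box, and those of Dazl and Tdrkh because these genes were lower in the mutant and have no match. All are read 5′ to 3′ along the gene's strand, with CACGTG in capitals. Ddx4 lies at chr13:112652261-112652560 (minus strand), Mael at chr1:166238695-166238994 (minus strand), Tdrd9 at chr12:111971309-111971608 (plus strand), Dazl at chr17:50293571-50293870 (minus strand) and Tdrkh at chr3:94412994-94413293 (plus strand).
Ddx4: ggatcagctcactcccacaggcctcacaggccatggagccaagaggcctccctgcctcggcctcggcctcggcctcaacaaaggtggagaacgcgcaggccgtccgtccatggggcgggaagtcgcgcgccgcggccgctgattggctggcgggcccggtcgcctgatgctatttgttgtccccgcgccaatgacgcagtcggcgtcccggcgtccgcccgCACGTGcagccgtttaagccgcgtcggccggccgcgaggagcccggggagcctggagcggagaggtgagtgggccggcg
Mael: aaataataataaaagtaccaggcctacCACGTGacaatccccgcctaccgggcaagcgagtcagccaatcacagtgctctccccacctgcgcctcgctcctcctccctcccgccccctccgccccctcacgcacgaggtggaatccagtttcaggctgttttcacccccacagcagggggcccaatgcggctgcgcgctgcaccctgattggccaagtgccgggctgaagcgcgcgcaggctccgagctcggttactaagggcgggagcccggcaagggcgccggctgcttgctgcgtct
Tdrd9: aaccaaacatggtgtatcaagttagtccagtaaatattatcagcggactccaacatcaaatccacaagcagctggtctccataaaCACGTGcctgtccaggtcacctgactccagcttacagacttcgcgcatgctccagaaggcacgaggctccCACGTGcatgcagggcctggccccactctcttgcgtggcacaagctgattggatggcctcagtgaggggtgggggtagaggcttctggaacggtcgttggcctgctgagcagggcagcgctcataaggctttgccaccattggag
Dazl: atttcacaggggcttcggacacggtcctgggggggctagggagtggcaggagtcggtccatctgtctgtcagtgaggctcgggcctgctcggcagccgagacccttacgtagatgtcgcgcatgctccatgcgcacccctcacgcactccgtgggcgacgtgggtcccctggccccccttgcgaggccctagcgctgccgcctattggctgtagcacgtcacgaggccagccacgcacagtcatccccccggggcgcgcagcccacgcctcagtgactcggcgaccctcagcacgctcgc
Tdrkh: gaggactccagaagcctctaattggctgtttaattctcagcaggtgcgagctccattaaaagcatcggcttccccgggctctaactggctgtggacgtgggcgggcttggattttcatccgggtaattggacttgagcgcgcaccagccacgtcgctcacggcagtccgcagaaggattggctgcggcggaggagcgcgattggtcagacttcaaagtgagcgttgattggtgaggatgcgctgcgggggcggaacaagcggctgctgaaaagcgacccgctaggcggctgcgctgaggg

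The E-box began 29 bases before the start of Ddx4, 223 bases before that of Mael, and 165 and 95 bases before that of Tdrd9. CpG dinucleotides numbered 38 in the Ddx4 window, 28 in that of Dazl, 25 in that of Tdrkh, 24 in that of Mael and 10 in that of Tdrd9, and their median was 20 over the listed genes and 8 over all genes, taking a gene's richest window. GATAA was present in 2 of the 27 listed genes, Tdrd9 and Asz1, against 28.4% of all genes. Among genes with at least 10 CpG in a window, it was present in 2 of 24 listed genes and in 17.3% of 12388 genes. The 4 measured genes with the E-box (Ddx4, Mael, Tdrd9 and Pld6) had ratios from -0.44 to 0.19 with a median of -0.13, and the 15 measured genes without it from -0.77 to 0.51 with a median of 0.03. The ranges overlapped.

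Related genes outside the list were compared next. Of 21 measured other pluripotency genes, 1 reached 2-fold on the high side in Gata4ki/ki, against 0.83% of all measured genes. None reached it on the low side, against 0.537%, and the median was 0.07. The gene on the high side was Lefty1, a secreted antagonist of NODAL. It had 59.0 in Gata4ki/ki and 9.01 in wild type, at least 2.45-fold higher on a single probe set. Fut4, which makes the SSEA-1 sugar epitope of early germ cells, had 83.0 in Gata4ki/ki and 41.7 in wild type, a ratio of 0.99. Tet2, a methylcytosine dioxygenase, had a ratio of 0.66, though its second probe set gave 0.08. Nr6a1 and Klf4 had ratios of -0.43 and -0.41.

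Read from their brightest probe sets, no other measured germ cell or piRNA gene was 2-fold apart. Over all measured genes, 0.83% were at least 2-fold higher and 0.537% at least 2-fold lower, so this does not set these lists apart. Dimmer probe sets of Elavl2 and Tdrd3 reached ratios of 1.27 and 1.02, while the brightest gave -0.27 and 0.16. Of 20 measured other germ cell genes, 15 had a ratio below 0, against 48.6% of all measured genes, with a median ratio of -0.09. Tex15, a testis germ cell protein that binds MILI, had the lowest, -0.60 (109 in Gata4ki/ki and 165 in wild type), followed by Ifitm1 at -0.48 and Stk31 at -0.42, while Rhox9 had 0.33. Cxcr4, the receptor that guides migrating germ cells, had a ratio of 0.15. Of 18 measured other piRNA, germ granule and small RNA genes, 11 were below 0, against the same 48.6%, with a median of -0.05. Ago1, Ago4 and Dgcr8 had ratios of 0.36, 0.33 and 0.30, and Drosha, a microRNA processing nuclease, had -0.33, though the probe sets of Ago4 and Drosha did not share a sign.

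Measured ligands that the soma supplies to germ cells were all within 2-fold. With 0.83% of all measured genes at least 2-fold higher and 0.537% lower, this does not set the ligands apart. Kitl, the KIT ligand, had 2387 in Gata4ki/ki and 2844 in wild type, a ratio of -0.25, and all 4 of its probe sets were below 0, down to -0.78. Cxcl12, the ligand of CXCR4, had 695 in Gata4ki/ki and 759.6 in wild type, a ratio of -0.13. Fgf9 had a ratio of -0.47, and Bmp2, Bmp4 and Rspo1 had 0.42, 0.36 and 0.34. Of 9 measured ligands 4 were below 0, against 48.6% of all measured genes, with a median of 0.01.

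The tissue was checked against markers of its cell types. The germ cell markers Dazl, Ddx4, Pou5f1, Dppa3 and Dppa5a were above the floor on both arrays, as were all 7 markers of gonadal supporting and coelomic cells, all 5 of the mesonephric duct and tubule markers with a probe set, and all 5 endothelial markers. Fst and Foxl2, markers of the supporting cells of the early ovary, were 11.7-fold and 4.13-fold lower in Gata4ki/ki. The other 5 markers of that list had ratios of 0.34 (Nr5a1), 0.29 (Krt19), 0.25 (Gata4), 0.01 (Wt1) and -0.21 (Lhx9), and the list had a median of 0.01, with 4 of 7 above 0. Dimmer probe sets of Gata4 and Lhx9 had the opposite sign. Macrophage markers were all higher, 6 of 6, with a median ratio of 0.75. Their summed signal was 1821 in Gata4ki/ki and 1102 in wild type. Over all measured genes, 6310 of 12284 had a ratio above 0. The 4 measured erythroid markers had a median ratio of 1.22. The ratio of 3′ to 5′ signal, a measure of RNA integrity, was 2.47 in Gata4ki/ki and 2.16 in wild type for beta-actin, and 1.10 in Gata4ki/ki and 0.901 in wild type for Gapdh. The part of these differences in the germ cell and piRNA values was not tested.

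**Figure D4:**
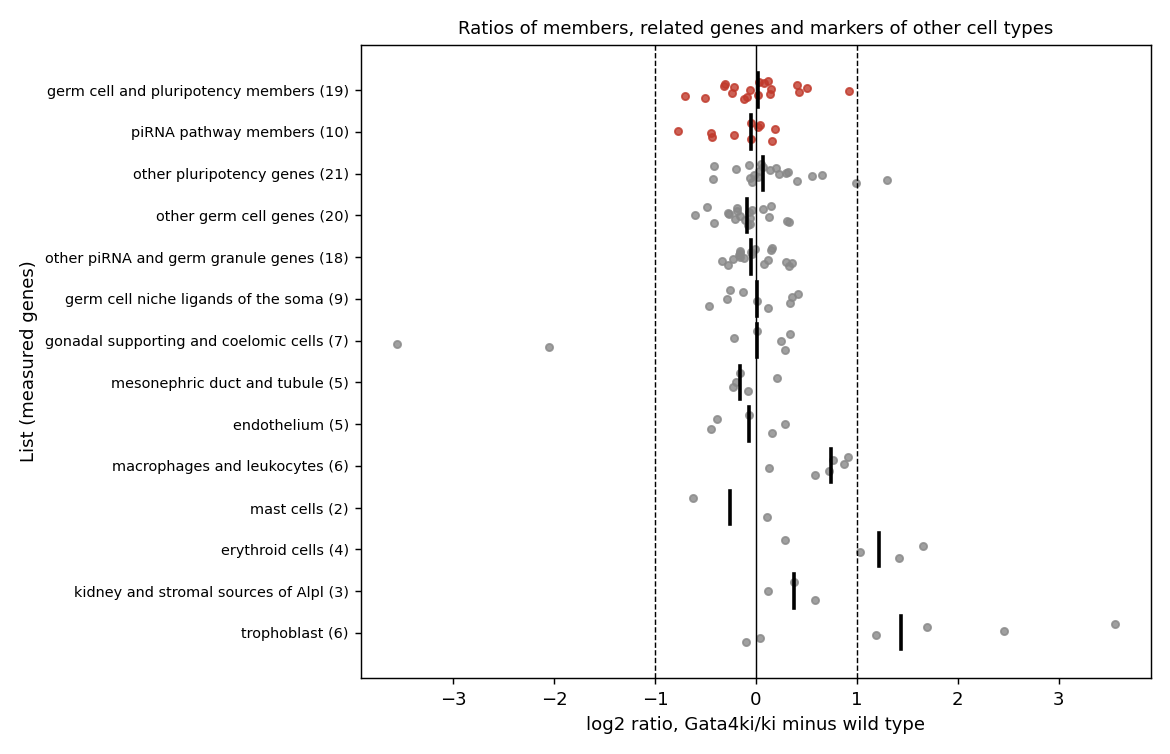
Log2 ratio of Gata4ki/ki minus wild type (horizontal axis) for the measured genes of each list, with the number in brackets, black bars at each list's median and dashed lines at 2-fold. The listed germ cell and piRNA genes (red) stay between the dashed lines, with medians of 0.02 and -0.05, while macrophage and erythroid markers have medians of 0.75 and 1.22.

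**Figure D5:**
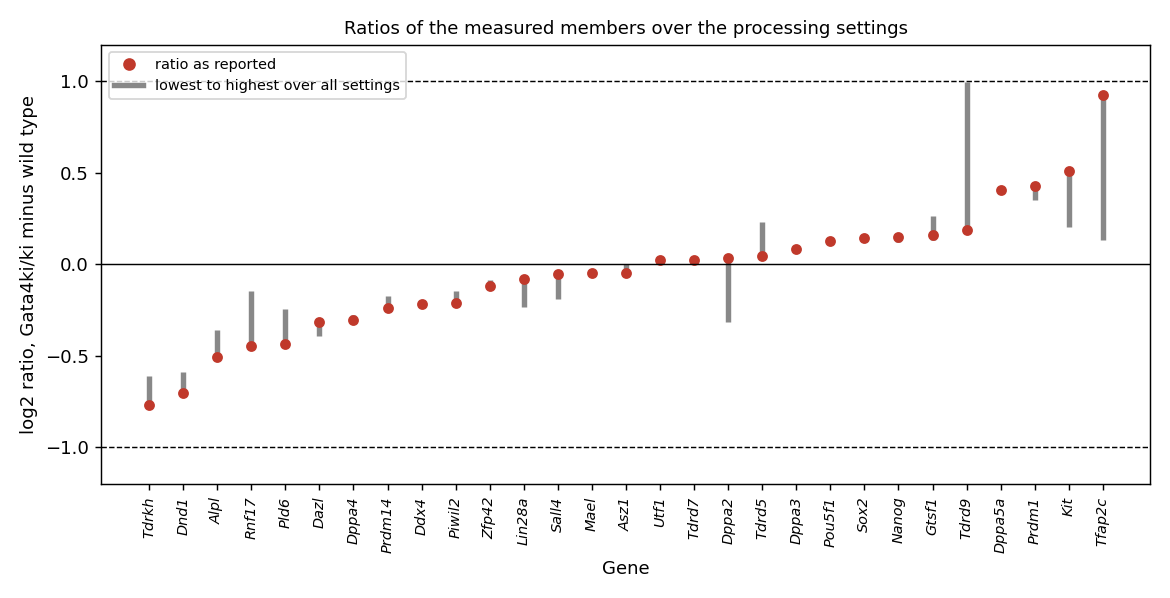
Log2 ratio of Gata4ki/ki minus wild type (vertical axis) of the 29 measured listed genes as reported (points) and from lowest to highest over all processing settings in which the gene was measured (bars). No bar crosses the dashed 2-fold lines, Tdrd9 comes nearest, and Tfap2c and Dppa2 have wide bars.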

How the data were processed

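Gene expression in gonad-mesonephros complexes was measured on 1 oligonucleotide array per group. The authors deposited signal intensities per probe set, and the submitters' processing notes name MAS5. Its version, its detection calls and any filter applied were not given in the sources used here. Trimmed of the highest and lowest 2%, the mean signal was 150.0 on each array, which shows a global scaling. Precision is poorest for dim probe sets, and the number of arrays limits it.

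Of 45101 probe sets, 34945 carried 1 gene symbol in the platform's annotation, 932 several and 9160 were unlisted. The 64 control probe sets were left out. Signals were used as deposited, with Python 3.11.15, numpy 2.4.6 and pandas 2.3.3. The floor was the 50th percentile over both arrays, and a gene was called where it was at least 2-fold apart. The calculation was tested on simulated data. No test between groups was possible.

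All 38 listed genes are named. Of the comparison lists, genes at least 2-fold apart and up to 4 with the largest ratios above the floor on both arrays are named, besides Kitl, Cxcl12 and Cxcr4; other genes were named after their values were seen. The members, lists, floor and 7 alternatives were chosen with earlier results of these data known.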

Additional observations from a re-analysis of the deposited data

How the results depend on the processing

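With 1 array per group no result has a replicate check, and low signal limits the piRNA genes most. The counts of listed genes at least 2-fold higher and 2-fold lower were 0 in all 7 alternative settings. Each setting kept a floor or a pseudocount, which draws the ratios of dim genes towards equality. For dim genes these counts are therefore no independent check. The median of the listed genes ran from -0.05 to -0.01. The number below 0 ran from 13 of 24 measured at the 60th percentile floor to 18 of 34 with no filter on low signal. Counts over all genes moved. Genes at least 2-fold higher numbered 102 as reported, 206 with the floor at the 40th percentile and 41 at the 60th. Genes at least 2-fold lower numbered 66, and 134 and 33 at those floors. A pseudocount in place of the floor gave 60 higher and 40 lower, with or without the filter on low signal. Of 197 ratios of listed genes under an alternative, 193 moved by less than the robust SD of genes of like signal. The exceptions were Tfap2c (0.13) and Dppa2 (-0.32) without suffixed probe sets, Kit (0.20) with the median over probe sets and Tdrd9 (0.996) at the lower floor. The sign held for 27 of the 29 genes, all but Dppa2 and Asz1, in the settings where each was measured. Kit had no value without suffixed probe sets, nor Gtsf1, Mael, Pld6, Tdrd5 and Tdrd9 at the 60th percentile floor. No paired analysis was possible because each group has 1 array.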

Other observations

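Among the other pluripotency genes, the NODAL pathway genes Lefty1 and Nodal were brighter on the mutant array and were singled out after their values were seen. NODAL, its coreceptor encoded by Tdgf1 and its antagonist LEFTY1 are expressed in germ cells of the fetal mouse testis. Lefty1 had 59.0 in Gata4ki/ki and 9.01 in wild type, at least 2.45-fold higher. Nodal had 31.9 in Gata4ki/ki and 11.3 in wild type, at least 1.33-fold higher. Tdgf1 had 18.3 in Gata4ki/ki and 2.498 in wild type, both under the floor, so its direction is unknown. Each value rests on dim signal on 1 array per group. Most measured trophoblast markers, and all measured macrophage and erythroid markers, were also higher on the mutant array. The cell source of the Lefty1 and Nodal signals was not tested. Of the male germ cell markers, Dnmt3l and Piwil4 were under the floor on both arrays, Nanos2 had no probe set, and Tdrd9 was at least 1.14-fold higher in Gata4ki/ki.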
